A study of Mus musculus with 56 samples.

Results

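Microexons are exons of at most 27 bases, and 695 of them were found among the 71922 distinct skipped exons listed in 11 tables of mouse splicing events. A skipped exon was taken as a microexon when its length lay between 3 and 27 bases, whatever its inclusion, and each chromosome, start and end was counted once. The 695 exons lay in 571 genes and made 4462 events, since an exon can be listed with several pairs of flanking exons. Lengths ran from 6 to 27 bases.

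The tables came from short-read RNA sequencing of tissues and cells in which the RNA-binding protein FMRP (gene Fmr1) was absent or reduced. Cortex, hippocampus, cerebellum, liver, muscle and testis each gave 3 samples of wild type (WT) and 3 with Fmr1 knocked out (KO), and the labels state neither the age nor the strain of the mice. Cells of N2a, a mouse neuroblastoma line, received a control siRNA (siNT, 2 samples) or an siRNA to Fmr1 (siFmr1, 3 samples). A second N2a experiment co-transfected siRNA and plasmid, with 3 samples in each of 5 groups. The plasmid pcDNA alone accompanied siNT, siFmr1 or siMbnl1, a nuclear form of MBNL1 with a FLAG tag (nMBNL1) accompanied siFmr1, and a cytosolic form with the same tag (cMBNL1) accompanied siMbnl1. Where the labels do not say that samples came from separate animals or cultures, the p-values below measure only the spread between these samples, which may be technical. That spread was pooled in part or almost wholly over exons, so that a p-value need not reflect the spread of its own exon.

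A microexon whose length is a multiple of 3 inserts a few amino acids into the protein without changing the reading frame. Many are included in neurons and skipped elsewhere. The serine/arginine-rich splicing factors SRRM4 and SRRM3 are known activators of neuronal microexons, and PTBP1, abundant in non-neuronal cells, is a known repressor. Splicing factors of the RBFOX and MBNL families act on sets of alternative exons in brain and muscle, and nuclear MBNL1 can raise or lower inclusion depending on where it binds.

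The exons on which the results turn are shown in capitals between 15 bases of each neighbouring exon, in lower case, on the strand of the gene and as spliced in GENCODE M21 transcripts (GRCm38). They comprise the shortest measured exon (Nsmf), exons that differed most between tissues or co-transfected sets, and pairs of related genes that carry nearly the same microexon.
Nsmf, 6 bases, chr2:25057965-25057970, plus strand: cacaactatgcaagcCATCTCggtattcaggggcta
Kif3a, 9 bases, chr11:53590717-53590725, plus strand: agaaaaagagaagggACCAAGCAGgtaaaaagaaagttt
Kcnma1, 12 bases, chr14:23449200-23449211, minus strand: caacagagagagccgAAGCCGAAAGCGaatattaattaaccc
Dctn1, 15 bases, chr6:83197319-83197333, plus strand: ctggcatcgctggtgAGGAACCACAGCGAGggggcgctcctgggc
Mast2, 21 bases, chr4:116333413-116333433, minus strand: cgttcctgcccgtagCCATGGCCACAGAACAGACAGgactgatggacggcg
Mef2a, 24 bases, chr7:67244521-67244544, minus strand: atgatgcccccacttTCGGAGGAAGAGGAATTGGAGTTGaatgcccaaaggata
Picalm, 24 bases, chr7:90194273-90194296, plus strand: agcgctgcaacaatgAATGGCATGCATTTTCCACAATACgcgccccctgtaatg
Gopc, 24 bases, chr10:52357342-52357365, minus strand: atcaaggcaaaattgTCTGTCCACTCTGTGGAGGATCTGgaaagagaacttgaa
Eif4g1, 21 bases, chr16:20674786-20674806, plus strand: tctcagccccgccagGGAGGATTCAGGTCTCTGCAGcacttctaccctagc
Eif4g3, 21 bases, chr4:138095909-138095929, plus strand: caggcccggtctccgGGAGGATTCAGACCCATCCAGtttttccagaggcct
Cpeb2, 24 bases, chr5:43268869-43268892, plus strand: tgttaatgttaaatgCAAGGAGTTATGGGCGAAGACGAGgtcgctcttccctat
Cpeb4, 24 bases, chr11:31918801-31918824, plus strand: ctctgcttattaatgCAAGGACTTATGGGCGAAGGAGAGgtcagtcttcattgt
Rapgef2, 24 bases, chr3:79082624-79082647, minus strand: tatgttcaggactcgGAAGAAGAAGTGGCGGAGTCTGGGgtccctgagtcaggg
Rapgef6, 24 bases, chr11:54671655-54671678, plus strand: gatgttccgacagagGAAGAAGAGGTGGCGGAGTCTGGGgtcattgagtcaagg

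Reading frame was kept by most microexons. A length that is a multiple of 3 was found for 479 of the 695 (68.9%), against 39.5% of the 68331 skipped exons of 28 to 300 bases in the same tables. The share was 85.7% of the 28 exons of 3 to 9 bases, 86.1% of the 108 exons of 10 to 15 bases, 72.5% of the 193 exons of 16 to 21 bases and 60.7% of the 366 exons of 22 to 27 bases. Only 3 exons had 6 bases, whereas 118 had 27 bases and 104 had 24 bases. In the annotation 646 were coding, 14 untranslated and 12 partly coding, 10 lay only in transcripts without coding sequence and 13 were no annotated exon. The share that was coding was 94.4% among exons that keep the frame and 89.8% among those that do not. The median distance to the neighbouring exons was 1655 bases upstream and 1368 bases downstream, against 1704 and 1538 bases for exons of 28 to 300 bases.

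Depth and labels differed between the experiments. Brain libraries held between 406597 and 854473 junction reads over all skipped exons. Those of testis, muscle, liver and the N2a cells without plasmid held between 7506227 and 12282115, and the co-transfected ones between 35906127 and 57090318. Gene counts ran the other way, with totals of 26264368 to 41384652 in brain libraries. They were 13230785 to 16268865 in testis, muscle, liver and the N2a cells without plasmid. Per the labels, brain libraries were also made with another kit, and the form length of skipping was 34 in the brain tables and 149 in all others. Differences between brain and the other samples cannot be told apart from these. Fmr1 was lower in every KO than in every WT library in all tissues but muscle (3.21 to 4.33 against 3.99 to 6.09 TPM, a transcript level scaled for length and depth). The first N2a experiment held libraries that stand apart. The first siFmr1 and first siNT sample resembled each other (r = 0.991 across genes), as did siFmr1 sample 3 and siNT sample 2 (0.987), and Fmr1 overlapped between siFmr1 (0.70 to 6.62 TPM) and siNT (5.66 to 33.98 TPM). Inclusion of skipped exons also paired values across the sets, with r = 0.893 between the first value of each set and 0.893 between value 3 of set 1 and value 2 of set 2. Outside these pairs, siFmr1 sample 2 was by genes nearest to siNT sample 1 (0.965), and value 2 of set 1 was by exons nearest to value 3 of set 1 (0.887). The exon values carry no sample names.

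The tables give inclusion and skipping reads for 2 sets of replicates without naming the sets. In the first N2a table set 1 holds 3 values and set 2 holds 2, which are siFmr1 and siNT by their number of samples. For the tissues the order of WT and KO is not given, and the sets are called set 1 and set 2 with no genotype attached. The inclusion level is the percentage of inclusion reads among inclusion and skipping reads, each divided by its form length, so that a library with few reads gives a coarse value. Differences are given in percentage points. An exon counted as measured in a table whose replicates averaged 20 or more of its reads. Values for a tissue are those of 1 event per exon, with the same flanking exons in every table: the event measured in the most tissues and, among equals, with the most reads. Comparisons of sets use the most-read event of their table, and comparisons of tissues the event with the most reads over both tables. Reads carried no molecular identifiers, so that read numbers account for counting error only.

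Microexons were measured in every tissue, and those that keep the frame had a lower median inclusion outside the brain. The number measured was 165 in cortex, 178 in hippocampus, 186 in cerebellum, 98 in liver, 148 in muscle, 185 in testis and 209 in N2a cells. The median inclusion of frame-keeping microexons was 91.7% in cortex, 91.1% in hippocampus and 89.7% in cerebellum, and it was 59.1% in liver, 82.5% in muscle, 65.5% in testis and 70.1% in N2a cells. These medians rest on partly different exons, namely 153, 162 and 166 in the brain regions, 67 in liver, 111 in muscle, 130 in testis and 154 in N2a cells. Microexons that shift the frame had medians between 98.6% and 99.4% in all 7. At most 10% inclusion was found for 6 exons in cortex, 8 in hippocampus and 8 in cerebellum, and for 20 in liver, 18 in muscle, 37 in testis and 25 in N2a cells. Frame-keeping exons of 28 to 300 bases had medians between 98% and 99.3%. At the length limit, exons of 26 and 27 bases and exons of 28 to 30 bases had medians of 93.0% and 93.1% in cortex, 97% and 92.3% in hippocampus, 95.8% and 91.3% in cerebellum, 98.8% and 99.1% in liver, 96.8% and 97.6% in muscle, 94.8% and 99.0% in testis and 87.5% and 98.3% in N2a cells.

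**Figure D1:**
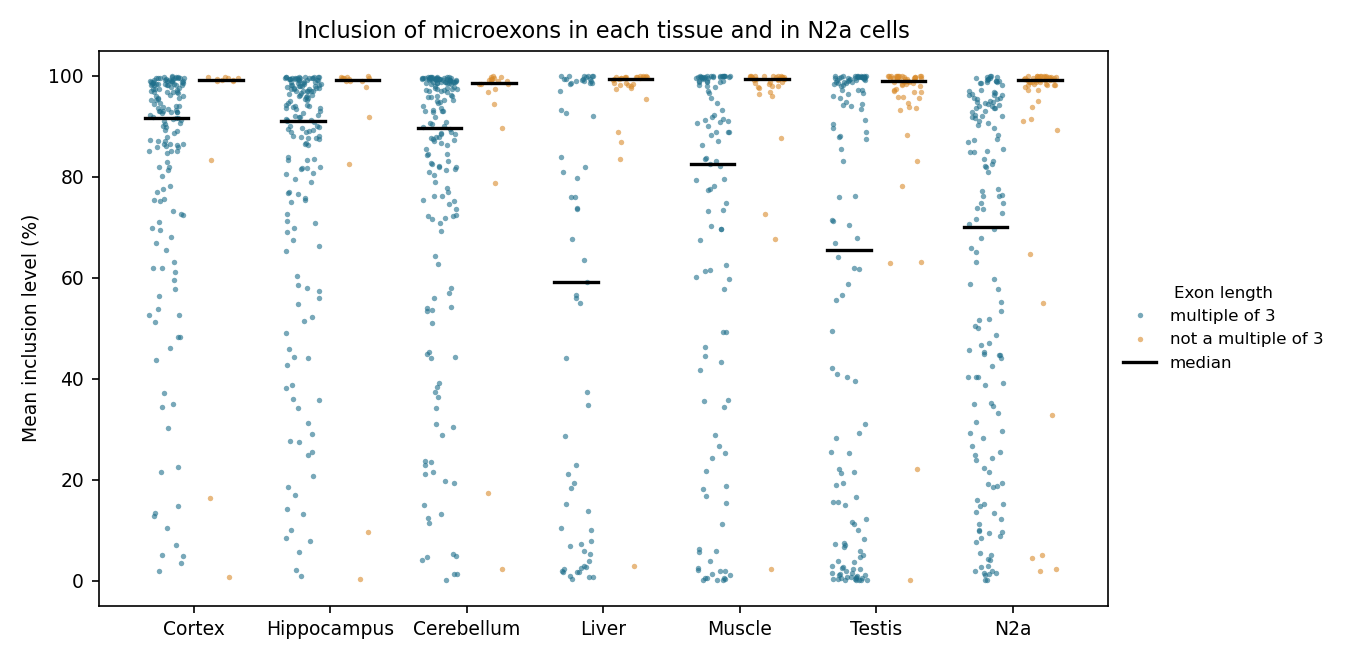
Mean inclusion level (%) of every measured microexon in each tissue and in N2a cells, 1 point per exon, split by whether its length is a multiple of 3, with black lines at the medians. Frame-keeping microexons fill the whole range, with a median of 91.7% in cortex and 59.1% in liver. Frame-shifting ones crowd near 99%, and the exons measured differ between tissues.

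Few microexons could be followed through the whole body. Of 415 measured in at least 1 tissue, 199 were measured in exactly 1 and 19 in all 6. Over these 19 the median range between the lowest and the highest tissue mean was 75.5 points, and 15 ranged over at least 50 points. The highest mean of those 15 lay in a brain region for 14 and in muscle for 1, and the lowest lay in liver for 6 and in testis for 9. Averaged over the 19 exons, single libraries gave 82.4% to 87.8% in cortex, 83.3% to 87.1% in hippocampus, 83.1% to 86.1% in cerebellum, 35.5% to 38.7% in liver, 55.4% to 64.9% in muscle, 33.5% to 37.6% in testis and 68.8% to 75.5% in N2a cells. The brain libraries lay above all others, and muscle lay between them and liver or testis without overlap.

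The widest range belonged to Rps24, a protein of the small ribosomal subunit, whose 20-base exon was included at 99.0% in cortex, 72.6% in muscle, 78.1% in testis and 2.94% in liver. Its neighbouring 18-base exon was included at 22.5% in cortex, 60.2% in muscle, 5.92% in liver and 0.293% in testis. The liver value rests on 24 to 44 reads a library, and with other flanking exons, at 583 to 975 reads, the exon stood at 0.14% there. The next widest were Gopc, a Golgi protein with a PDZ domain (96.7% in hippocampus, 0.835% in testis), Abi1, a subunit of the actin-regulating WAVE complex (99.7% in cerebellum, 6.85% in liver), Mef2a, a transcription factor of muscle and neurons (91.4% in cortex, 0.66% in liver), and the protein kinase Csnk1g3 (99.6% in cerebellum, 9.96% in liver). Mef2a and Abi1 were also high in muscle, at 82.5% and 83.5%. The narrowest range, 5.8 points, belonged to Immt, which organises the inner mitochondrial membrane and was included at 93.2% to 98.9%. Idh3g, Hnrnpc, Dnm2 and Rps24 (18 bases) made up the rest of the 5 narrowest exons; with these flanking exons the last of them ranged from 0.293% to 60.2%.

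**Figure D2:**
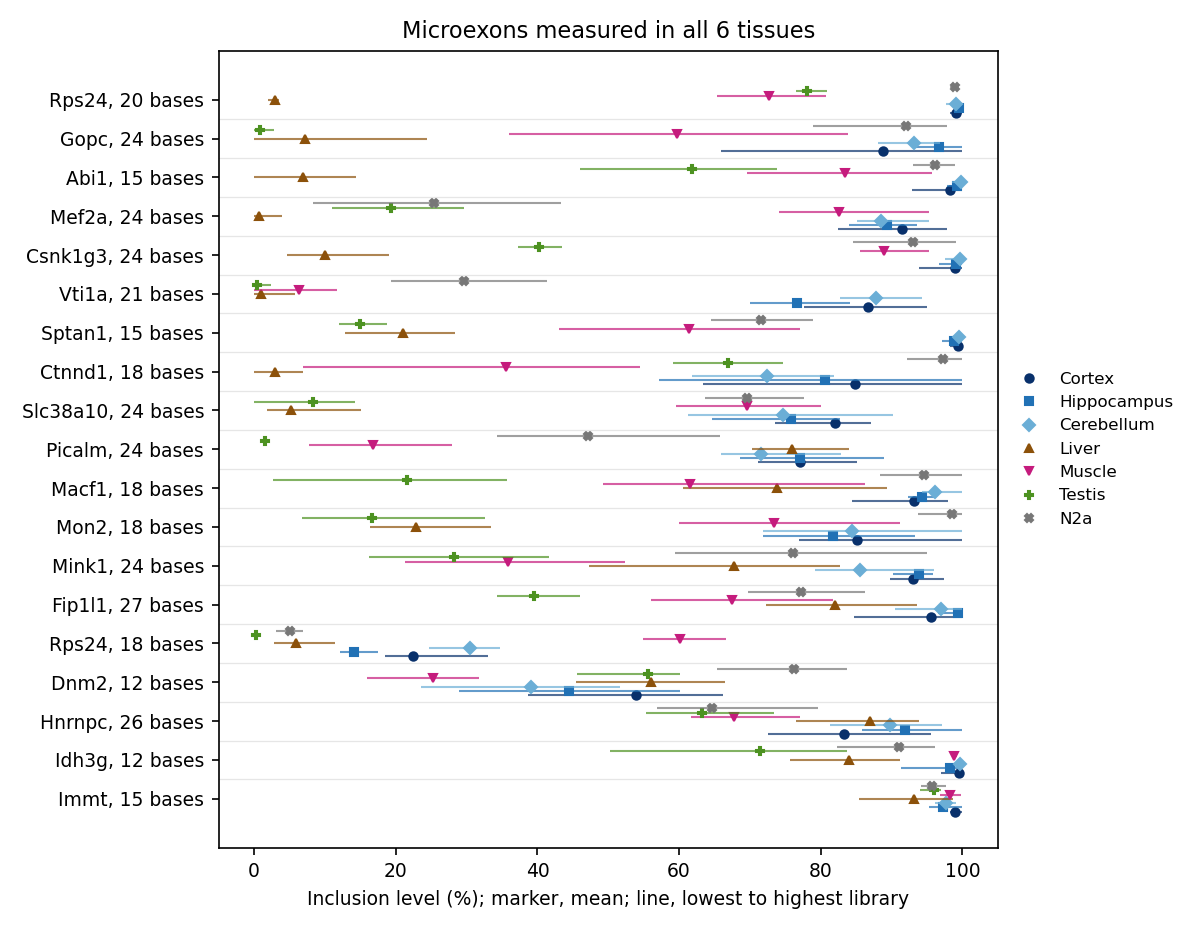
Inclusion level (%) of the 19 microexons measured in all 6 tissues, with a marker at the mean of each tissue and of N2a cells and a line from the lowest to the highest library. The blue brain markers sit at the right for most exons, liver and testis at the left, and Immt at the bottom stays between 93.2% and 98.9%.

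Tissues were compared over both sets together, so that WT and KO libraries enter each tissue in equal numbers, whereas the N2a side holds 3 siFmr1 and 2 siNT libraries. Only exons listed in both tables with the same inner ends of their flanking exons were tested, with a quasi-binomial F test whose dispersion was moderated over all exons, and an exon was called at a Benjamini-Hochberg adjusted p below 0.05 over all exons of any length and a difference of at least 10 points. Moderation could leave little of the spread of single exons. Between cortex and testis the dispersion of microexons lay between 1.93 and 1.94. The very small p-values there rest on the size of the difference, read number and pooled spread, not on the spread of the exon itself. In bulk tissue a change in the share of cells and a change of inclusion within a cell type cannot be told apart. Against liver, 32 of 41 microexons were called, 30 higher in cortex and 2 lower. Over all exons tested 25.1% were called, 16.2% higher in cortex and 8.83% lower. Against muscle, 47 of 63 were called, 40 higher in cortex and 7 lower, beside 22.2% of all exons (14% higher, 8.12% lower). Against testis, 42 of 62 were called, 40 higher in cortex and 2 lower, beside 25.9% of all exons (16.4% higher, 9.53% lower). Against N2a cells, 60 of 101 were called, 50 higher in cortex and 10 lower, beside 21.4% of all exons (14.6% higher, 6.85% lower). The median difference of microexons was 62.2 points against liver, 24.4 against muscle, 35.4 against testis and 13.4 against N2a cells, whereas over all exons it lay between 0.015 and 0.455 points. With the first value of each N2a set alone 60 microexons were called, and with the other 3 values alone 60.

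Within the brain fewer exons were called. Cortex and hippocampus differed at 4 of 142 microexons, 3 higher in cortex and 1 lower, beside 0.6% of all exons (0.44% higher, 0.16% lower). Cortex and cerebellum differed at 17 of 140, with 9 higher in cortex and 8 lower, beside 7.06% of all exons (4.3% higher, 2.76% lower). Outside the brain, liver and muscle differed at 22 of 53, with 4 higher in liver and 18 lower, beside 11.7% (5.75% higher, 5.99% lower). Liver and testis differed at 19 of 53, with 10 higher in liver and 9 lower, beside 13.8% (6.61% higher, 7.22% lower). When a minimum of 50 reads was asked for, the counts fell to 8 of cortex against liver, 13 against muscle, 11 against testis and 21 against N2a cells, with fewer exons tested.

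Frame-keeping length went with the calls among longer exons too. Of exons of 28 to 300 bases, 254 of 738 that keep the frame and 95 of 729 that shift it were called between cortex and liver, beside 30 of 36 frame-keeping microexons. Between cortex and N2a cells these counts were 342 of 1199, 119 of 1150 and 60 of 91.

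**Figure D3:**
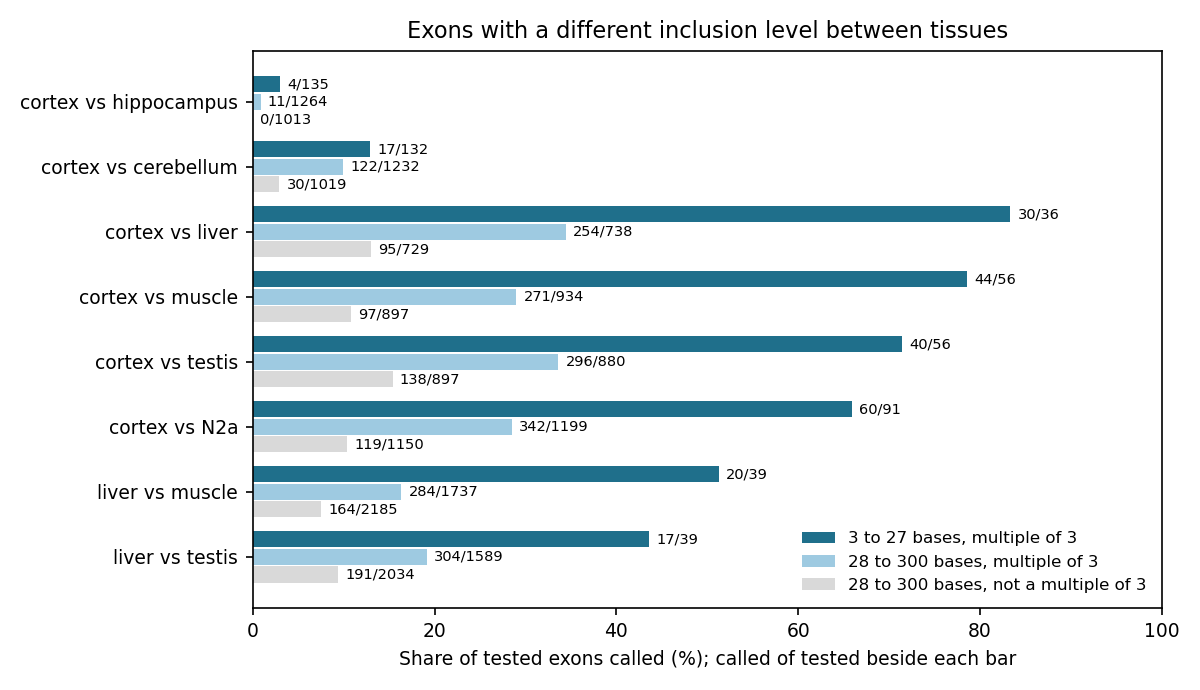
Share (%) of tested exons called in each of the 8 tissue comparisons, for frame-keeping microexons and for longer exons that keep or shift the frame, with called and tested numbers beside each bar. The bar of frame-keeping microexons is the longest in each comparison, from 4 of 135 between cortex and hippocampus to 30 of 36 between cortex and liver.

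Genes of the cytoskeleton and its motors held 31 microexons in 15 of the 25 genes of a list drawn up for this description. All 6 tested against liver were called, each higher in cortex, as were 11 of 13 against muscle with 1 lower, 9 of 11 against testis and 12 of 17 against N2a cells. Beside these stand 25.1% of all exons called against liver, 22.2% against muscle, 25.9% against testis and 21.4% against N2a cells. The counts over all microexons are given above, and whether the list differs from them was not tested. Dctn1, the large subunit of the dynein partner dynactin, has the 15-base exon shown above. In cortex its lowest, median and highest inclusion were 92.1%, 96.3% and 100%, and in liver 0%, 0% and 9.89% (96.3% ± 2.8 against 1.65% ± 4.04, SD, n = 6 each, adjusted p = 3.7e-32). All libraries but 1 of liver were at 0. In muscle it stood at 0.0824% ± 0.202 and in N2a cells at 53.5% ± 3.03. The other 3 measured microexons of Dctn1 also exceeded 93% in cortex but not in the same way elsewhere, since the 21-base exon at chr6:83187764-83187784 reached 49.3% in muscle and only 2.85% in N2a cells.

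Kif1b, a kinesin that carries mitochondria and vesicles, included its 18-base exon at 87.4% ± 3.12 in cortex and 88.3% ± 7.63 in N2a cells, but at 0.531% ± 0.613 in muscle and 0.628% ± 1.05 in testis. Kif21a, another kinesin, included its 21-base exon at 91.2% ± 4.06 in cortex and 1.65% ± 1.83 in liver. Kif1a, which carries synaptic vesicle precursors, had 3 measured exons in cortex, at 78.2%, 48.2% and 37.1%, and none was above 90% in any brain region. Clasp2, which binds microtubule ends, showed opposite patterns within 1 gene. Its 18-base exon stood at 98.6% ± 2.31 in cortex and 28.9% ± 6.45 in muscle, whereas a 27-base exon stood at 10.4% ± 7.93 in cortex and 73.1% ± 4.80 in muscle. Git1, an adaptor of focal adhesions and synapses that is not on the list, fell from 99.4% (median; 97.1% to 100%) in cortex to 0% (0% to 2.59%) in muscle (adjusted p = 5.6e-25).

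Kif3a, a motor subunit needed for cilia, ran the other way. In cortex its 9-base exon had a lowest, median and highest inclusion of 8.42%, 12.7% and 22.1%, and in testis of 90.5%, 94.4% and 98.2% (14.8% ± 5.81 against 94.5% ± 2.57, adjusted p = 1.2e-67). In cerebellum it lay between 23.3% and 46.1% (adjusted p = 0.00068), above all cortex libraries, with a difference of 19.5 points. In N2a cells the siFmr1 values were 71.7%, 69.3% and 76.4% and the siNT values 32.2% and 76.5% (adjusted p = 2.8e-05). With set 2 of each table alone neither of the last 2 calls was kept. Mapk8ip3, a scaffold that links JNK kinases to kinesin, was likewise low in cortex (7.32%, 13.5% and 19.1%) and high in N2a cells (siFmr1 80.7%, 82.6% and 87.4%, siNT 73.2% and 80.6%, adjusted p = 1e-10).

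Genes of vesicle traffic and endocytosis held 18 microexons in 12 of 30 listed genes. Against liver 1 of 3 was called with a median difference of 1.17 points, against muscle 3 of 3, against testis 3 of 4 and against N2a cells 4 of 5, of which 1 was lower in cortex. Of all exons 25.1%, 22.2%, 25.9% and 21.4% were called in these comparisons, in the same order. Picalm, which recruits clathrin to membranes, had an exon that was high in liver as well as brain. Its lowest, median and highest inclusion was 70.4%, 75.1% and 83.9% in liver, 7.81%, 15.7% and 28% in muscle and 1.04%, 1.44% and 2.23% in testis. Liver exceeded muscle by 59.1 points (adjusted p = 6.4e-20) and testis by 74.4 points (adjusted p = 3.3e-54), and no library overlapped. Dnm2, a dynamin that cuts vesicles from membranes, stood at 56.0% ± 8.25 in liver and 25.2% ± 5.92 in muscle (adjusted p = 1.6e-05). Vti1a, a SNARE protein, fell from 86.6% ± 6.93 in cortex to 0.955% ± 2.34 in liver. Synj1, a phosphatase that uncoats synaptic vesicles, and Ap1b1, an adaptor subunit, are outside the list. Synj1 was at 97.4%, 98.2% and 99.1% in cortex and at 2.56%, 7.01%, 4.15%, 0% and 0% in the N2a libraries (adjusted p = 6.3e-12). The 21-base exon of Ap1b1 was at 93.8% ± 4.18 in cortex and 1.80% ± 2.49 in N2a cells (adjusted p = 2.5e-11).

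Cadps, which primes dense-core vesicles, separated brain regions. Its 21-base exon had a lowest, median and highest inclusion of 57.0%, 64.2% and 93.5% in cortex, 25.9%, 38.5% and 43.0% in hippocampus and 92.0%, 96.5% and 100% in cerebellum. The cortex exceeded the hippocampus by 31.0 points (adjusted p = 4.5e-06) with no overlap. This call was lost with either set alone, where 3 libraries a tissue remain. Aifm3, a relative of the apoptosis-inducing factor, was also higher in cortex (57.2%, 73.8% and 100%) than in hippocampus (12%, 27.8% and 48.6%, adjusted p = 1.7e-05). With set 1 of each table alone 1 microexon was called between these regions, and with set 2 alone none. The 18-base exon of Cadps was above 84% in every brain library.

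Adhesion molecules, receptors and channels of the synapse held 33 microexons in 18 of 32 listed genes. Between cortex and cerebellum 5 of 14 were called, 3 higher in cortex and 2 lower, beside 17 of 140 microexons and 7.06% of all exons. Kcnma1, the pore of the large-conductance potassium channel, was among them. Its 12-base exon had a lowest, median and highest inclusion of 55.3%, 66.2% and 72.7% in cortex, 71.8%, 80.2% and 92.2% in hippocampus and 0%, 0% and 1.10% in cerebellum. Cortex exceeded cerebellum by 65.4 points (adjusted p = 1.2e-129). Only 1 of 6 cerebellar libraries held an inclusion read. The hippocampus exceeded the cortex by 15 points (adjusted p = 0.01), and the libraries overlapped by a narrow margin.

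Nrxn3, a presynaptic adhesion molecule, rose from 21.6% ± 7.4 in cortex to 44.2% ± 9.15 in cerebellum (adjusted p = 0.001), a call that was lost with set 2 of each table alone. Cacna2d3, an auxiliary subunit of calcium channels outside the list, fell from 90.02% ± 7.94 in cortex to 57.9% ± 6.62 in cerebellum (adjusted p = 1.1e-08). Enah, which promotes actin filament growth and belongs to the cytoskeletal list, fell from 51.3% ± 8.32 to 19.8% ± 6.98 (adjusted p = 5.5e-06), but was not called with set 1 alone. The related Cacna2d1 stood at 98.5% ± 1.57 in cortex and 2.01% ± 0.836 in muscle (adjusted p = 1e-31). Ctnnd1, a catenin of cell junctions, was at 66.9% ± 5.26 in testis and 2.98% ± 2.67 in liver (adjusted p = 8.5e-22).

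Regulators of kinases and small GTPases held 9 microexons in 8 of 25 listed genes, and few were listed in pairs of tissues. None of the single exons tested against liver, muscle and testis was called, beside 25.1%, 22.2% and 25.9% of all exons. Against N2a cells 2 of 3 were called, beside 21.4% of all exons. Among them was the 18-base exon of the tyrosine kinase Src, at 86.1% ± 8.98 in cortex and 19.2% ± 12.5 in N2a cells. The exon of Arhgef12, a RhoA exchange factor, was at 94.8% to 99.5% in cortex, liver, muscle, testis and N2a cells. Mast2, a microtubule-associated kinase that is not on the list, was at 83.1%, 97.0% and 100% in cortex and at 0%, 0.789% and 1.19% in testis (adjusted p = 8.3e-111). Mark2, a kinase of microtubule-associated proteins, was low in cortex (0%, 3.69% and 13.1%) and variable in muscle (28.1%, 57.4% and 84.1%, adjusted p = 2.7e-09).

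Genes of transcription, chromatin and translation held 9 microexons in 9 of 24 listed genes. Both tested against liver were called, as were 3 of 4 against muscle, 4 of 4 against testis and 4 of 6 against N2a cells. The shares over all exons were 25.1%, 22.2%, 25.9% and 21.4% in the same order, and the counts over all microexons are given above. Mef2a had a lowest, median and highest inclusion of 0%, 0% and 3.96% in liver and 74.1%, 81.4% and 95.3% in muscle (adjusted p = 1.3e-15), and muscle overlapped with cortex (82.4% to 97.8%). Eif4g1 and Eif4g3, scaffolds of translation initiation, share 16 of the 21 bases of the exons shown above. In cortex they stood at 92.8% ± 3.23 and 97.3% ± 3.13, and in muscle at 0.044% ± 0.108 and 0.509% ± 1.25. In N2a cells Eif4g1 was at 45.3% ± 5.35 and Eif4g3 at 1.93% ± 2.21.

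Cpeb2, Cpeb3 and Cpeb4 bind cytoplasmic polyadenylation elements of messenger RNAs. Their 24-base exons, of which Cpeb2 shares 21 bases with each of the other two, were at 94.0% ± 8.77, 86.5% ± 7.08 and 72.6% ± 8.64 in cortex. In testis they were at 10.0% ± 0.97, 12.3% ± 4.13 and 1.4% ± 2.15. Such likeness did not fix the level. Rapgef2 and Rapgef6, exchange factors of the GTPase RAP1, share 23 of 24 bases, yet in N2a cells Rapgef2 was at 91.7% ± 4.96 and Rapgef6 at 1.49% ± 3.32. Over 142 pairs of equally long microexons in related genes, 49 were at least 60% identical and the median identity was 47.8%. These pairs were matched by gene symbol and chosen after the values were known.

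Other exons named for their size belonged to no list. Dtnb, a dystrobrevin, was at 96.6% ± 3.88 in cortex, 1.93% ± 4.72 in liver (adjusted p = 1.8e-29) and 2.20% ± 2.31 in testis. Plekha5 fell from 98.3% ± 1.90 in cortex to 2.47% ± 1.37 in testis (adjusted p = 1.3e-90). Liver stood far above testis for Dst, a cytoskeletal linker (92.7% ± 6.49 against 5.79% ± 2.49, adjusted p = 3.3e-32), and for Ctage5, which helps export large cargo from the endoplasmic reticulum (99.5% ± 0.682 against 21.3% ± 12.4, adjusted p = 5.1e-35). The 6-base exon of Nsmf, a messenger between synapse and nucleus, was at 93.4% ± 2.83 in cortex, 92.3% ± 2.77 in hippocampus, 92.3% ± 6.21 in N2a cells and 18.4% ± 4 in liver. Among the 69 microexons measured in the 3 brain regions and another tissue, 50 had every brain mean above every other tissue and 7 below. No such count is given here for longer exons, so that this cannot be read as particular to microexons. An exon with only 1 other tissue measured meets the rule more easily, and brain libraries differed in kit and form length. At least 90% in each brain region and at most 10% in every other tissue measured was found for 6, namely 2 of Dctn1 and 1 each of Cacna2d1, Dtnb, Eif4g3 and Myo18a. For 4 of these (Cacna2d1, Eif4g3, Myo18a and the 21-base exon of Dctn1) muscle was the sole other tissue measured, and N2a cells included Myo18a at 93.6% and Dtnb at 83.2%.

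Single genes supplied large shares of the microexon reads in some tissues. In muscle Tnnt3, the troponin T of fast fibres, gave 75.1% of all microexon reads, Myl1 10.2% and the calcium pump Atp2a1 6.43%. In testis BC051142, with 11 microexons, gave 24.1%. In liver Pzp gave 13.1% and Cfi 9.28%, in N2a cells Rps24 gave 18.1%, and in cortex the largest share was 4.86%, from Kif1a. Tissue markers followed the labels: Snap25 of neurons stood at 3917 to 5327 TPM in cortex and 34.9 to 194.51 TPM in N2a cells, Acta1 at 41291 TPM or more in muscle and Prm1 at 27619 TPM or more in testis. The choroid plexus marker Ttr varied between hippocampal libraries from 18.83 to 11140.8 TPM, and its part in the hippocampal values was not tested.

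Regulators known to act on microexons differed between the same tissues. Srrm4 stood at 16.25 to 20.13 TPM in cortex, 33.32 to 36.96 in cerebellum, 5.81 to 13.47 in N2a cells, 0.45 to 3.84 in liver and 0.41 to 0.69 in testis, and it was not listed in muscle. Srrm3 stood at 27.32 to 32.78 TPM in cortex, 46.61 to 52.92 in cerebellum, 7.7 to 18.93 in N2a cells and 0.06 to 0.36 in testis. Ptbp1 was at 17.86 to 22.5 TPM in cortex, 54.59 to 83.07 in liver, 72.14 to 81.53 in testis and 235.75 to 382.72 in N2a cells. In muscle Ptbp1 was at 9.58 to 19.9 TPM and Rbfox1 at 74.94 to 108.14 TPM, and Mbnl1 reached its highest level there, 112.16 to 162.26 TPM. In muscle, Ptbp1 thus overlapped with its range in cortex while Srrm4 was not listed. The part of these levels in the inclusion of microexons was not tested.

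**Figure D4:**
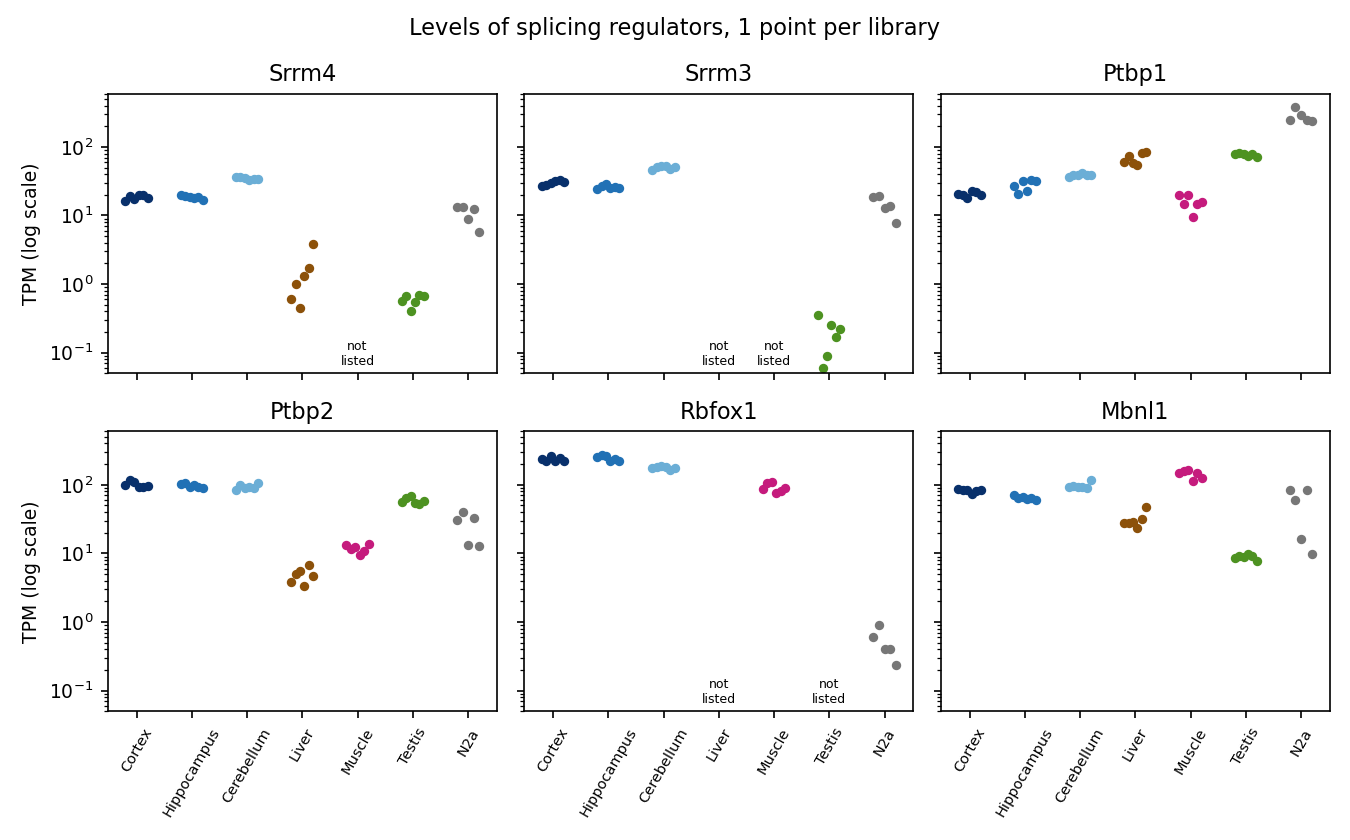
Level (TPM, log axis) of 6 splicing regulators, 1 point per library, in each tissue and in N2a cells. Srrm4 is at 16.25 to 36.96 TPM in cortex, hippocampus and cerebellum and at most 3.84 TPM in liver and testis, and Ptbp1 is highest in N2a cells.

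No microexon was called between the 2 sets within any tissue, or between siFmr1 and siNT in the first N2a experiment. The N2a test took no account of the likeness of values across its 2 sets described above. The quasi-binomial test covered 155 microexons in cortex, 171 in hippocampus, 181 in cerebellum, 92 in liver, 150 in muscle, 179 in testis and 213 in N2a cells. Unadjusted p-values below 0.05 were found for 7, 8, 6, 4, 8, 8 and 2 of them, and over all exons 0.00664% were called in testis and 0% in the 6 others. The authors' deposited rMATS calls, at a false discovery rate below 0.05 and the same 10 points and 20 reads, held 1 microexon in cortex (beside 0.187% of all exons), 2 in liver (0.657%), 2 in muscle (0.683%) and 1 in N2a cells (0.506%). They held none in hippocampus (0.0457%), cerebellum (0.0177%) or testis (0.358%).

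Of these 6, Picalm in muscle had set 1 values of 23.6%, 16.6% and 28% and set 2 values of 7.81%, 9.91% and 14.9% (deposited false discovery rate 0.00111 in the authors' deposited table). The sets did not overlap, and the quasi-binomial test gave an adjusted p of 0.64. Commd6 in cortex had 86.5%, 64.7% and 73.9% in set 1 and 92.4%, 92.8% and 100% in set 2. Hnrnpc in liver had 92.4%, 90.7% and 93.9% against 76.5%, 79.5% and 88.5%. Spag9, a scaffold of JNK signalling and motors, had 6.45%, 11% and 4.56% in siFmr1 and 19.2% and 26.1% in siNT N2a cells. Gopc in liver and Sgce in muscle overlapped between sets.

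The co-transfected cells were compared in 4 tables that share control libraries. The same set of 3 libraries, with identical reads, is the second set in 3 of the tables and is called pcDNA set A. The set compared with it in the first table is also the second set of the table with nMBNL1, and is called pcDNA set B. One of A and B is siNT with pcDNA and the other siFmr1 with pcDNA, in an order that is not stated. The labels tie the first table to these 2 groups and each other table to 1 group (siMbnl1 with pcDNA, siFmr1 with nMBNL1 or siMbnl1 with cMBNL1), which is taken as the set of that table that is neither A nor B. Libraries are numbered below by their position within a set. The knockdowns were seen in the normalized counts: Fmr1 was at 2819 to 3604 with siNT and pcDNA and at 583 to 612 with siFmr1 and pcDNA, and Mbnl1 was at 3759 to 5017 with siNT and pcDNA and 1408 to 1538 with siMbnl1 and pcDNA. With the plasmids Mbnl1 reached 11032 to 13253 (nMBNL1) and 16769 to 23339 (cMBNL1). Srrm4 lay between 1093 and 1918 in all 5 groups, and Srrm3 at 557 to 866 with siNT and pcDNA and 1198 to 1311 with siFmr1 and pcDNA.

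Between B and A, 9 of 332 microexons were called, all higher in B, beside 0.387% of all exons (0.293% higher, 0.094% lower). The mean over microexons was 73.5% to 74.2% in the B libraries and 70.7% to 71.3% in the A libraries. Picalm was at 43.1%, 42.8% and 41.7% in B and at 17.5%, 25.2% and 26.3% in A (adjusted p = 3.8e-10). Sptan1, the alpha-II spectrin of the membrane skeleton, was at 61.0%, 60.5% and 60.6% in B and at 41.3%, 46.1% and 42.5% in A (adjusted p = 2.9e-06). Neither set overlapped, and both calls were kept whichever library was left out. Gatad2a, a subunit of the NuRD complex, gave the largest difference, 77.4%, 63.4% and 73.7% in B against 40.4%, 41.2% and 34.7% in A (adjusted p = 0.042), at a 16-base exon that the annotation does not hold. Arrb1, a beta-arrestin (adjusted p = 0.018), the 15-base exon of Dctn1 (0.0059) and Mast2 (0.027) were the other named exons. Gatad2a lost its call without any 1 library but library 1 of A, Mast2 without any 1 of the 6, Arrb1 without library 2 or 3 of either set, and Dctn1 without library 1 or 2 of B or library 3 of A. Without library 3 of B the number called was 5.

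siMbnl1 with pcDNA differed from A at 17 of 325 microexons, 14 higher and 3 lower, beside 0.376% of all exons (0.136% higher, 0.241% lower). Mast2 was at 48.1%, 49.4% and 51.7% against 11.4%, 15.2% and 15.04% in A (adjusted p = 2.4e-06). Tmem184b was at 37.0%, 38.7% and 30.5% against 9.15%, 6.16% and 14.0% (adjusted p = 3.3e-07). Trappc13, a subunit of the TRAPP tethering complex, fell to 27.1%, 33.8% and 29.8% from 54.9%, 56.3% and 51.4% (adjusted p = 7.7e-12). These 3 calls were kept whichever library was left out. Gopc was at 91.9%, 84.7% and 85.2% against 58.8%, 63.8% and 67.0% (adjusted p = 0.00065), a call lost without siMbnl1 library 1. Espn and Ocrl were called at adjusted p = 0.016 and 0.015 on 11 to 100 reads a library. Espn, an actin-bundling protein, was at 100%, 29.0% and 31.1% in A and 6.6%, 0% and 0% with siMbnl1, and lost its call without siMbnl1 library 2 or 3 or library 1 of A. Ocrl, a phosphoinositide phosphatase, lost it without any siMbnl1 library or library 2 of A. Without siMbnl1 library 3 the number called was 10.

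siFmr1 with nMBNL1 differed from B at 7 of 341 microexons, 3 higher and 4 lower, beside 0.263% of all exons (0.0724% higher, 0.191% lower). The 9-base exon of Kif3a fell to 28.6%, 28.4% and 32.7% from 74.2%, 75.9% and 64.0% in B (adjusted p = 2.3e-20). Mapk8ip3 fell to 52.3%, 48.7% and 60.9% from 85.8%, 79.7% and 76.0% (adjusted p = 9.6e-10). Both calls were kept whichever library was left out. Mink1, a kinase of the JNK pathway, fell to 49.0%, 58.9% and 52.1% from 62.0%, 76.1% and 80.9% (adjusted p = 0.00028), and lost its call without library 3 of B. Ppp3cc, a catalytic subunit of calcineurin, stood at 33.0%, 13.9% and 17% against 1.8%, 0% and 0% in B (adjusted p = 0.018) and lost it without nMBNL1 library 1 or any of B. Gopc (adjusted p = 0.023) lost its call without any 1 library but library 3 of B, and the 9-base exon of Ap1b1 (adjusted p = 0.009) without library 3 of either set. Without nMBNL1 library 1 the number called was 4, and without library 3 of B it was 3.

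siMbnl1 with cMBNL1 differed from A at 18 of 348 microexons, 17 higher and 1 lower, beside 0.463% of all exons (0.152% higher, 0.311% lower). Eif4g1 was at 39.4%, 32.6% and 39.7% against 13.5%, 20.4% and 18.6% in A (adjusted p = 1.6e-08). Max, the partner of the transcription factor MYC, was at 56.0%, 52.2% and 50.7% against 28%, 37.0% and 30.9% (adjusted p = 2.7e-06). Mast2 was at 47.8%, 33.0% and 48.1% (adjusted p = 0.00024). These 3 calls were kept whichever library was left out. Mapk8ip3 was lower, at 72.4%, 57.0% and 70.0% against 90.2%, 84.3% and 85.8% (adjusted p = 0.0011), a call lost without cMBNL1 library 2. Gatad2a (adjusted p = 0.0093) lost its call without cMBNL1 library 2 or 3 or library 3 of A, and Src (adjusted p = 0.046) without any 1 library but library 1 of A. Without cMBNL1 library 1, 2 or 3 the number called was 9, 11 and 7.

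Side by side, the 5 sets placed exons in different orders. The mean inclusion of Kif3a was 79.1% in A, 71.4% in B, 94.2% with siMbnl1 and pcDNA, 29.9% with nMBNL1 and 69.5% with cMBNL1. Picalm was at 23.0% in A, 42.6% in B, 13.9% with siMbnl1 and pcDNA, 52.6% with nMBNL1 and 35.9% with cMBNL1. Mast2 was lowest in A (13.9%) and stood at 33.1% in B, 49.7% with siMbnl1 and pcDNA, 29.4% with nMBNL1 and 42.9% with cMBNL1. Eif4g1 was likewise lowest in A (17.5%) and lay between 30.9% and 40.5% in the other 4 sets. Trappc13 was highest in A (54.2%) and lay between 30.3% and 49.3% elsewhere. With the dispersion of each exon taken alone in place of the moderated one, no microexon was called in any of the 4 tables. The authors' deposited rMATS calls at the same limits held 33 microexons for B, 37 for siMbnl1 with pcDNA, 13 for nMBNL1 and 37 for cMBNL1, beside 1.54%, 1.7%, 0.93% and 1.74% of all exons.

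**Figure D5:**
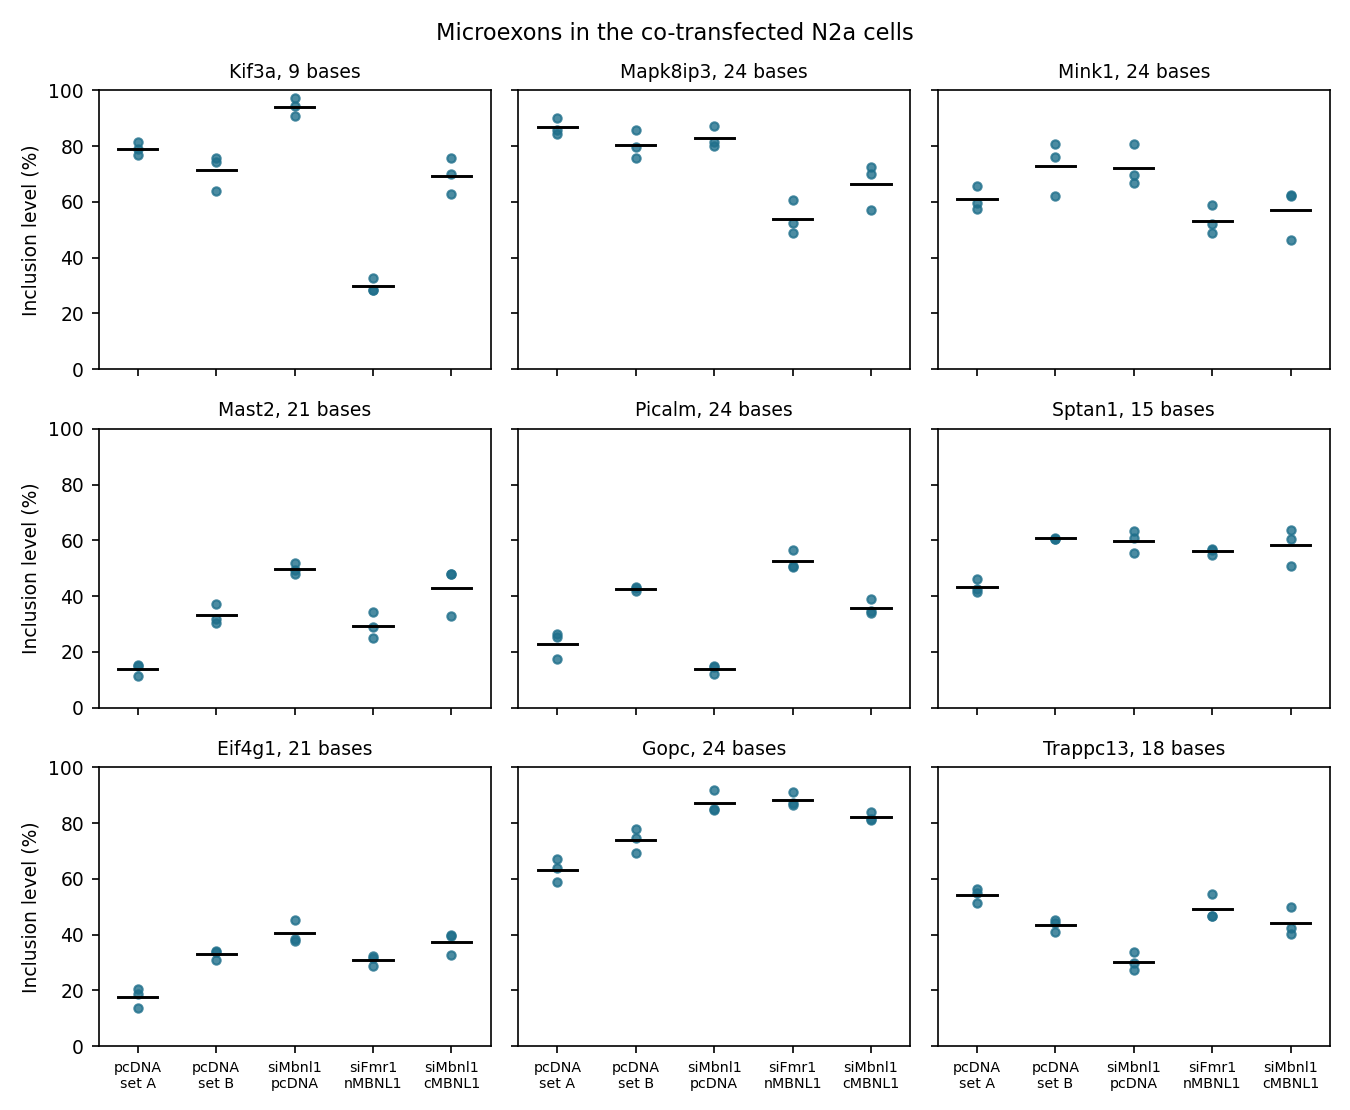
Inclusion level (%) of 9 microexons in the 5 sets of co-transfected N2a cells, 1 point per library with a line at the mean of 3. Kif3a with nMBNL1 lies at 28.4% to 32.7%, below the 62.7% or more of every other library, and Mast2, Eif4g1 and Sptan1 are lowest in pcDNA set A.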

How the data were processed

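RNA sequencing of 56 mouse samples in 19 groups was used. Per the submitters' processing notes, the tools included Trimmomatic 0.39, STAR 2.6.1, RSEM 1.3.1 and DESeq2 1.16.1 on GRCm38 (mm10), and the version of rMATS is not given in the sources used here. The authors deposited, for each skipped exon, inclusion and skipping junction read counts per replicate with their form lengths, p-values and false discovery rates, and an inclusion difference score. They also deposited gene counts, TPM values and, for the co-transfected cells, a normalized count signal. Of per-sample columns, 4 matched no sample and were not used.

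Inclusion levels were recomputed from reads and form lengths (the authors' deposited differences were met within 0.002 for every event). Exons with a mean of at least 20 reads per replicate were tested by a quasi-binomial F test with moderated dispersion, not under 1, and Benjamini-Hochberg adjustment over all exons (Python 3.11.15, numpy 2.4.6, pandas 2.3.3, SciPy 1.17.1, matplotlib 3.10.9). The prior of the dispersion came from exons with at least 50 reads of each form, a limit set after dispersions were seen. The text names, in each tissue comparison, up to 3 called exons in each direction with the largest difference and no overlap, in each set comparison up to 6, listed genes by cortex reads, the 5 widest and 5 narrowest ranges over tissues, and exons of up to 6 bases. The members and lists were chosen with earlier results of these data known. Intron motifs were not analysed here. Alternatives changed the read minimum, the difference, the dispersion and the libraries kept. Some exons that this rule names are not reported here.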

Additional observations from a re-analysis of the deposited data

Results flagged for a closer look

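In 3 microexons measured in all 6 tissues, 1 library stood far from the other 5 of its tissue. Of such exons, only those with the 5 widest and 5 narrowest ranges over tissues were examined, and not each in every tissue. Gopc in liver reached 24.3% in 1 library of set 1, above 0% to 9.09% in the other 5. Mef2a in cerebellum reached 95.3% in 1 library, with a tissue mean of 88.6%. The 18-base exon of Rps24 in cortex reached 33.0%, with a median of 20.5% over the tissue. Chance flags about 1 in 20 groups in this way.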

How the results depend on the processing

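Of the alternative counts, 157 stayed within 1.5 times the reported one and 40 did not. The 157 include comparisons of sets within tissues and in the first N2a experiment, where 0 called against 0 called counts as unchanged. Of the values of named exons, 484 kept their call, 94 lost it and none changed direction. An exon that an alternative no longer tested is in neither number. The named exons were chosen from these data as called ones, mostly for a large difference. Between cortex and hippocampus (4 called) 2 were called with the moderated dispersion kept at or above that of the exon itself, 1 with set 1 of each table alone and 0 with set 2 alone. Between cortex and cerebellum (17) there were 9 at a minimum of 50 reads, 9 at a difference of 20 points, 11 with set 1 alone and 10 with set 2 alone. A minimum of 50 reads, which leaves fewer exons, gave 8 for cortex against liver (32), 13 against muscle (47), 11 against testis (42), 21 against N2a cells (60), 10 for liver against muscle (22) and 10 for liver against testis (19). A minimum of 10 reads gave 50 for cortex against liver, 64 against testis and 35 for liver against muscle. Set 2 alone gave 34 for cortex against N2a cells. The deposited false discovery rate gave 1 microexon in cortex, 2 in liver, 2 in muscle and 1 in N2a cells, where the quasi-binomial test gave 0. For pcDNA set B against A, siMbnl1 with pcDNA against A, nMBNL1 against B and cMBNL1 against A (9, 17, 7 and 18) a difference of 20 points gave 1, 8, 3 and 5, the deposited false discovery rate 33, 37, 13 and 37, and the dispersion of each exon alone 0 in all 4. Leaving out each library in turn gave 5 to 13, 10 to 14, 3 to 6 and 7 to 18, and 0 throughout between the sets within tissues and in N2a cells. Except where an alternative tests fewer exons or samples, the cause was not tested. No paired analysis was possible because the replicate values in the junction tables carry no sample numbers. Brain libraries held at most 854473 junction reads, and single libraries there rest on few reads. Of the microexons listed, 165 of 265 were measured in cortex, 178 of 289 in hippocampus and 186 of 280 in cerebellum. Outside the brain 98 of 176 were measured in liver, 148 of 263 in muscle and 185 of 294 in testis. The part of read depth in these numbers was not tested.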
